A study of Mus musculus with 8 samples.

Results

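The genes described here encode 40 enzymes that make fatty acids and triglycerides, or act on the same lipids, of 22367 protein-coding genes in the mouse mm9 annotation. They were taken by name, and each was matched to 1 gene. They hold 4 genes of de novo fatty acid synthesis, 5 acyl-CoA synthetases, 6 elongases, 8 desaturases, 13 genes that assemble glycerolipids and 4 lipases, which hydrolyse lipids and do not build them. For each gene, the body (from the first to the last annotated base) and the start site were placed relative to lamina-associated domains (LADs), the stretches of chromatin that contact the nuclear lamina at the rim of the nucleus.

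LADs had been mapped by LaminB1-DamID in 3T3-L1 cells, an established mouse fibroblast line that turns into fat cells when treated with adipogenic hormones and drugs. In this assay a bacterial methylase (Dam) fused to LaminB1 methylates GATC sites of DNA near the lamina, and free Dam, run in parallel, gives the control for accessibility. The 4 conditions were untreated preadipocytes (day 0), adipocytes at day 9 that carried a non-target shRNA, adipocytes at day 9 with an shRNA against Tmem120a, and adipocytes at day 9 with shRNAs against Tmem120a and Tmem120b. Both genes encode transmembrane proteins of the nuclear envelope. The labels give the control adipocytes this non-target shRNA. The study's text names non-target shRNAs as control for its microarray cells, and an empty shRNA vector as control for the loss of Tmem120a protein. All 3 adipocyte conditions received insulin, dexamethasone, IBMX and rosiglitazone, and Dam or LaminB1-Dam was brought into the cells of every condition by lentivirus. The preadipocytes carried no shRNA by the labels, so differentiation and the shRNA vector cannot be told apart in the comparison of preadipocytes with adipocytes.

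Each list of LADs rests on 1 LaminB1-Dam and 1 Dam library (8 libraries in all), so there are no replicates, no difference below could be set against a spread, and no test was made. The lists give positions only. Read depth and the strength of contact within a LAD are therefore unknown, and a gene outside a called LAD is not shown to lack contact. The adipocyte list held 2542 LADs and the preadipocyte list 3914, whereas the Tmem120a knockdown list held 5723 and the Tmem120a/b knockdown list 6971. Summed LAD length lay between 1161.4 and 1197.9 Mb in all 4 lists, so the knockdown lists hold more and shorter LADs. The files hold no expression values, so neither the adipocyte state of the cells nor the depletion of Tmem120a and Tmem120b could be checked in them.

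Fat cells make new fatty acids in the cytosol. ATP citrate lyase supplies acetyl-CoA, acetyl-CoA carboxylase turns it into malonyl-CoA, and fatty acid synthase joins these units into palmitate. Elongases and desaturases then lengthen and unsaturate the chain, acyl-CoA synthetases activate it, and a series of acyltransferases and phosphatases attaches the chains to glycerol to give triglyceride, the main store of fat in the adipocyte. Many of these genes are strongly induced during adipogenesis. Genes that are silent in a cell type are often found in LADs, and release of a gene from the lamina has been linked to its activation in differentiation.

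The enzymes lay almost entirely outside LADs, before and after differentiation. The body met a LAD in 2 of 40 genes (5%) in preadipocytes, where 26.2% of all protein-coding genes did so. It met a LAD in 0 of 40 in control adipocytes (23.3% of all genes), in 1 of 40 upon Tmem120a knockdown (27.5% of all genes) and in 2 of 40 upon Tmem120a/b knockdown (29.5% of all genes). The start site lay in a LAD in 2, 0, 0 and 0 of the 40 genes in the same order, where the shares among all genes were 23.3%, 21.2%, 22.6% and 23.8%. For 35 of the 40 genes (87.5%) the body lay outside LADs in all 4 lists, against 63.7% of all genes. The members were thus fewer in LADs than genes at large in every list, the preadipocyte list included.

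**Figure D1:**
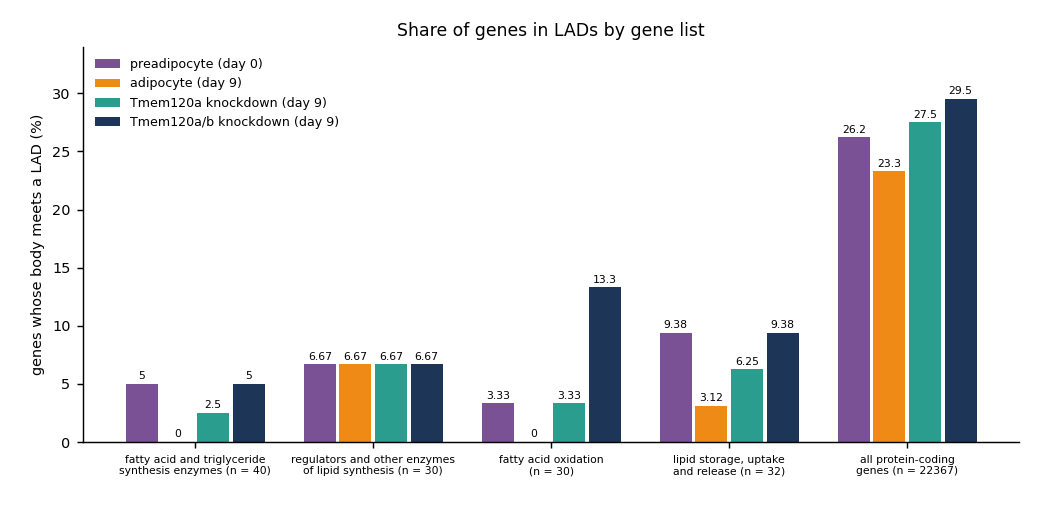
Share of genes (y axis, %) whose body meets a LAD in each of the 4 lists, for the 40 enzymes, 3 other lists of fat metabolism genes and all 22367 protein-coding genes. Bars are single values from 1 list per condition. The 40 enzymes sit between 0% and 5%, the 3 other lists between 0% and 13.3%, and all genes between 23.3% and 29.5%.

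Elovl2 and Elovl4 were the 2 genes in a LAD in preadipocytes. Elovl2 lengthens polyunsaturated fatty acids, and Elovl4 makes the very-long-chain fatty acids of retina and skin. Acaca (acetyl-CoA carboxylase of the cytosol) was the gene that met a LAD upon Tmem120a knockdown. Acsl4 (an acyl-CoA synthetase with a preference for arachidonate) and Elovl6 (which elongates palmitate to stearate) were the 2 that met one upon Tmem120a/b knockdown. The 5 genes thus differed in state between lists, each met a LAD in 1 list only, and the LAD that each met held no other protein-coding gene and had no base in a LAD of any of the other lists. The 5 LADs were between 27.9 and 102 kb long. With LADs under 100 kb left out, Elovl4 alone of the 5 still met a LAD, and with LADs under 30 kb left out Elovl6 met none.

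The ends of these LADs are shown because they set the limits of each call. They fall at GATC, the site that Dam methylates and DpnI cuts, and the call cannot be finer than the distance between such sites. The 60 bases around each border are read from the plus strand of mm9, from the lower border to the upper border, with GATC in capitals.
Elovl2 LAD in preadipocytes, lower border, chr13:41270130-41270189: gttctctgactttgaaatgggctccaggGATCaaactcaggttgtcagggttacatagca
Elovl2 LAD in preadipocytes, upper border, chr13:41323194-41323253: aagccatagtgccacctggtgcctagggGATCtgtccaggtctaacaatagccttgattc
Elovl4 LAD in preadipocytes, lower border, chr9:83608871-83608930: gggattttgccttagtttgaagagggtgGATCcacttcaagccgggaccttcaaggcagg
Elovl4 LAD in preadipocytes, upper border, chr9:83711235-83711294: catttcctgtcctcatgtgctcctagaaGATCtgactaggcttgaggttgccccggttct
Acaca LAD upon Tmem120a knockdown, lower border, chr11:84106327-84106386: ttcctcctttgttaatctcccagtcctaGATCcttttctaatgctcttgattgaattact
Acaca LAD upon Tmem120a knockdown, upper border, chr11:84156624-84156683: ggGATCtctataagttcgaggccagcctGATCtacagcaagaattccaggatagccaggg
Acsl4 LAD upon Tmem120a/b knockdown, lower border, chrX:138747868-138747927: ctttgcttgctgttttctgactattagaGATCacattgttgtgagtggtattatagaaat
Acsl4 LAD upon Tmem120a/b knockdown, upper border, chrX:138790540-138790599: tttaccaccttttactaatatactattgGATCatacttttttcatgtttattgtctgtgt
Elovl6 LAD upon Tmem120a/b knockdown, lower border, chr3:129268699-129268758: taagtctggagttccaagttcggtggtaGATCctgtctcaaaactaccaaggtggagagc
Elovl6 LAD upon Tmem120a/b knockdown, upper border, chr3:129296625-129296684: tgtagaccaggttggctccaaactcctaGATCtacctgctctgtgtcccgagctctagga
All 10 borders fell at a GATC site, and the upper border of the Acaca LAD had another GATC within the window. Over the whole lists 97.8% of LAD borders in preadipocytes, 96.5% in control adipocytes, 98.6% upon Tmem120a knockdown and 98.8% upon Tmem120a/b knockdown fell at such a site.

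Elovl2 (ENSMUSG00000021364.9, chr13:41277864-41315774, minus strand) was covered whole by a preadipocyte LAD of 53.1 kb. That LAD ran from 7.45 kb upstream of the start site to 45.6 kb downstream of it and held all 9 exons. No base of Elovl2 lay in a LAD in control adipocytes or in either knockdown. The start site was 982 kb from the nearest LAD in control adipocytes, 734 kb upon Tmem120a knockdown and 162 kb upon Tmem120a/b knockdown. Elovl2 therefore stood in a LAD of its own in preadipocytes and outside LADs in all 3 lists of day 9, where the nearest LAD was farthest in control adipocytes and closest upon Tmem120a/b knockdown.

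Elovl4 (ENSMUSG00000032262.6, chr9:83672300-83699912, minus strand) was also covered whole in preadipocytes, by a LAD of 102 kb that reached from 11.3 kb upstream of the start site to 91.0 kb downstream and held all 6 exons. Its start site was 266 kb from a LAD in control adipocytes, 103 kb upon Tmem120a knockdown and 96.9 kb upon Tmem120a/b knockdown. In the Tmem120a knockdown the nearest LAD was 93.4 kb long and lay downstream of the gene. In the Tmem120a/b knockdown the nearest was 16.9 kb long and lay upstream. Both knockdown lists thus had LADs closer to Elovl4 than the adipocyte list had, but neither covered the gene.

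The released state of these genes is also in the deposited list of regions in LADs of preadipocytes alone, which holds 2021 regions. The whole LADs over Elovl2 and Elovl4 are each 1 region of that list. They were the 2 of 40 members (5%) that met such a region, as did 5.76% of all genes. None of the 40 met any of the 1808 regions in LADs of adipocytes alone, as did 3.08% of all genes. By the LAD lists themselves, 2 of 40 members were in a LAD in preadipocytes and not in control adipocytes (4.81% of all genes), and 0 of 40 were in a LAD in control adipocytes and not in preadipocytes (1.88% of all genes). The share released was close to that of all genes. However, only 2 members met a LAD in preadipocytes, so no more than 2 could be released. Both were, as were 1076 of the 5865 genes overall that met a LAD in preadipocytes. With 2 such members, whether release was more or less common in the group cannot be told.

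The promoters of the 2 released genes are shown because their start sites differed in state between preadipocytes and adipocytes. Each sequence holds the 250 bases before a RefSeq start (GRCm38.p6 sequence, matched base for base to mm9), read on the minus strand. Neither holds a GATC or a CACGTG (the E-box named below), so there are no capitals.
Elovl2 promoter, chr13:41315773-41316022: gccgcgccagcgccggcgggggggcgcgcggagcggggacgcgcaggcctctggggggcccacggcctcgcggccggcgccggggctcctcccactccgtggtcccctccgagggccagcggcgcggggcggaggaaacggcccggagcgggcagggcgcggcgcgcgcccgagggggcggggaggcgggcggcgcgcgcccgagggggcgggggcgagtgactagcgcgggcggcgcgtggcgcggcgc
Elovl4 promoter, chr9:83699913-83700162: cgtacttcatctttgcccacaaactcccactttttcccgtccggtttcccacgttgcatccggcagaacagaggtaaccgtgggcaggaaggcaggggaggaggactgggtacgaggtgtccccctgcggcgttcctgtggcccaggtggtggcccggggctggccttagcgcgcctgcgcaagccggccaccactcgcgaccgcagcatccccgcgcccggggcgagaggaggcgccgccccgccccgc
Over the windows of 300 bases that run from 250 before to 50 after a start, 84.7% of bases were G or C at Elovl2 and 71% at Elovl4. The same windows were read at the annotated start of every gene in mm9. GATC (the same on both strands) was found in the windows of 12 of the 40 members (30%) and in 46.2% of the windows of all genes. At Elovl2 and Elovl4 the DpnI fragment over the start site was 828 and 1739 bp long, where the median was 852 bp over the 40 members and 722 bp over all genes. The call at these starts thus rests on fragments whose ends lie outside the promoter window. CACGTG, the E-box to which lipogenic factors of the bHLH family can bind (the same on both strands), was present in the windows of 5 of the 40 members (12.5%), namely Acaca, Elovl4, Elovl5, Lpin3 and Mgll, and in 7.78% of the windows of all genes. At Elovl4 the CACGTG is not within the 250 bases printed, so it reaches into the 50 bases after the start. RefSeq promoters were found for 32 members. Of their 44 starts in mm9, 3 lay in a preadipocyte LAD, all of Elovl2 or Elovl4, and none lay in a LAD of the other lists. In the windows of these RefSeq starts CACGTG was also present in 5 members, with Lpin2 in place of Acaca. The members named for CACGTG thus depend on the start that is read.

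Of the 40 members, 1 met a LAD upon Tmem120a knockdown and not in control adipocytes (6.13% of all genes), and 0 the reverse (1.95% of all genes). For the Tmem120a/b knockdown, 2 of 40 met a LAD there and not in control adipocytes (8.36% of all genes), and 0 the reverse (2.1% of all genes). No member was in a LAD in control adipocytes, so none could be lost. The member gained upon Tmem120a knockdown was Acaca, and those gained upon Tmem120a/b knockdown were Acsl4 and Elovl6. The body had the same state in all 4 lists in 35 of 40 members, where 83.1% of all genes had.

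Acaca (ENSMUSG00000020532.10, chr11:83943174-84215153, plus strand) is the longest of the members at 272 kb. In the Tmem120a knockdown 18.5% of its body lay in a LAD of 50.3 kb that sat wholly inside the gene, from 163 to 213 kb downstream of the annotated start. That LAD held 13 of the 61 exons. In the Tmem120a/b knockdown the gene met no LAD, and the nearest was 9.37 kb from its body. The nearest LAD was 875 kb from the body in preadipocytes and 922 kb in control adipocytes, so both knockdown lists held a LAD closer to Acaca than the lists of preadipocytes and control adipocytes did.

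Acsl4 (ENSMUSG00000031278.6, chrX:138752536-138825078, minus strand) met a LAD of 42.7 kb upon Tmem120a/b knockdown. This LAD began 34.5 kb downstream of the start site and ran past the end of the gene, and it covered 52.4% of the body and 14 of 16 exons. The start site was 556 kb from a LAD in preadipocytes, 1462 kb in control adipocytes, 378 kb upon Tmem120a knockdown and 34.5 kb upon Tmem120a/b knockdown. The adipocyte value was the highest of the 4 and the Tmem120a/b knockdown value the lowest.

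Elovl6 (ENSMUSG00000041220.6, chr3:129235304-129341413, plus strand) held a LAD of 27.9 kb inside its body upon Tmem120a/b knockdown, which was 26.3% of the body, from 33.4 to 61.4 kb downstream of the start. This LAD, as called, held none of the 5 exons. A further LAD of 75.1 kb ended 4.2 kb upstream of the start site in the same list. With gaps under 50 kb closed, the LADs joined, the start site lay in a LAD and 57.8% of the body was covered, and with LADs under 30 kb left out the body met none. Whether the start was in a LAD thus depended on the closing of gaps. The start site was 35.3 kb from a LAD in preadipocytes, 216 kb in control adipocytes and 52.4 kb upon Tmem120a knockdown. Within the 500 kb centred on the start site, 26.9% lay in LADs in preadipocytes, 6.87% in control adipocytes, 26.0% upon Tmem120a knockdown and 53.0% upon Tmem120a/b knockdown. Elovl6 was the member with the most LAD around it upon Tmem120a/b knockdown, and with less in control adipocytes than in any other list.

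**Figure D2:**
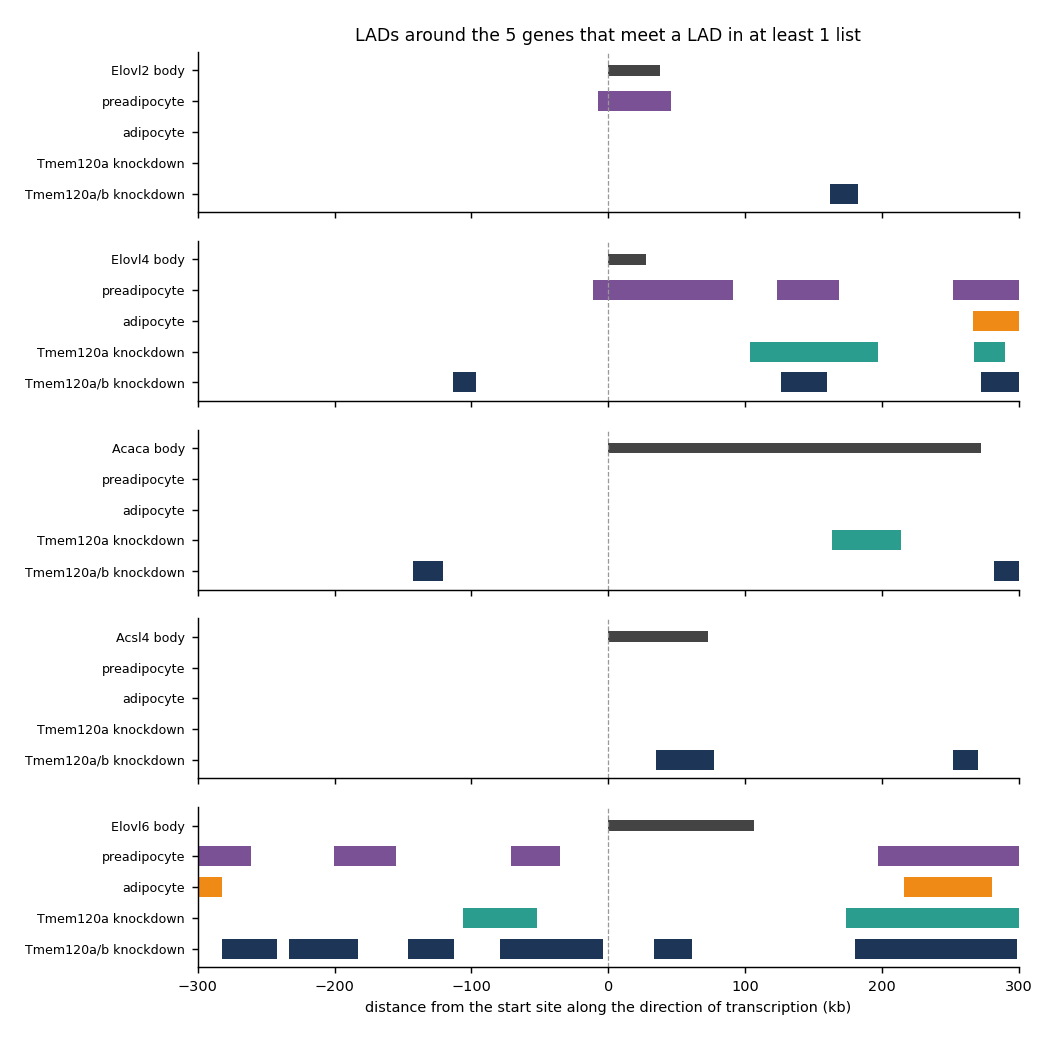
LADs (coloured bars) in each of the 4 lists within 300 kb of the start sites of Elovl2, Elovl4, Acaca, Acsl4 and Elovl6. The x axis is the distance from the start site in kb along the direction of transcription, the grey bar is the gene body and the dashed line the start site. Elovl2 and Elovl4 lie inside a preadipocyte LAD, while the LADs met by Acaca, Acsl4 and Elovl6 lie downstream of the start in a knockdown list.

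The genes of de novo synthesis other than Acaca stayed outside LADs in every list. The start site of Acly (ATP citrate lyase) was 551 kb from a LAD in preadipocytes, 629 kb in control adipocytes, 745 kb upon Tmem120a knockdown and 591 kb upon Tmem120a/b knockdown. For Acacb, the acetyl-CoA carboxylase of the mitochondrial surface, the distances ran from 680.2 to 976 kb over the lists. Both genes thus lay well outside LADs whichever list was read. Fasn (fatty acid synthase) was 1046, 1095 and 1116 kb from a LAD in preadipocytes, adipocytes and the Tmem120a knockdown, and 48.1 kb upon Tmem120a/b knockdown. The LAD behind the last value was 38.4 kb long and lay upstream of Fasn, at a place without a LAD in the other lists.

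Among the acyl-CoA synthetases, Acsl3 was the nearest to LADs by mean distance of the start site, with 98.5, 83.7, 119 and 115 kb in preadipocytes, adipocytes, Tmem120a knockdown and Tmem120a/b knockdown. Its body came within 34.5 kb of a LAD in control adipocytes. The share of its 500 kb window in LADs was 30.3%, 26.8%, 12.6% and 6.43% in the same order, so the start stayed at a like distance while the LAD sequence around it was lower in both knockdown lists. Acsl1, the main synthetase of adipocytes, was 553, 574, 366 and 61.5 kb from a LAD. Acsl5 was the farthest by mean distance, at 974, 2295, 697 and 439 kb. Acsl6, mainly a brain enzyme, gave 1293, 1221, 871 and 315 kb. For Acsl1, Acsl5 and Acsl6 the Tmem120a/b knockdown held the lowest value. It did so for 24 of the 38 members with starts outside LADs in every list (63.2%), and for 44.2% of all such genes.

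The elongases were the role group with the lowest median start distance in the first 3 lists, and the synthetases upon Tmem120a/b knockdown (115 kb). The elongases' median start distance was 117 kb in preadipocytes, 305 kb in control adipocytes, 88.3 kb upon Tmem120a knockdown and 130 kb upon Tmem120a/b knockdown, where the median over all 40 members was 474, 654, 364 and 270.1 kb and that over all genes 187, 301.3, 133 and 108.5 kb. In the first 3 lists the elongases were thus nearer to LADs than the other role groups. Set beside genes at large, they were nearer in preadipocytes and upon Tmem120a knockdown. They were close to that level in control adipocytes, and farther upon Tmem120a/b knockdown. They also supplied 3 of the 5 genes that met a LAD (3 of 6 elongases), where 63.7% of all genes lay outside LADs in all 4 lists. By mean distance Elovl6 was the nearest and Elovl2 the farthest of the 6. Elovl1, which elongates saturated and monounsaturated chains, was 281, 326, 73.2 and 39.1 kb from a LAD in the 4 lists. Elovl7, which elongates saturated chains, was 198, 285, 26.2 and 322 kb away. Elovl1 was thus nearer in both knockdown lists than in control adipocytes, and Elovl7 in the Tmem120a list only. Elovl5, a further elongase of polyunsaturated fatty acids, was 231 kb away in preadipocytes, 551 kb in control adipocytes, 287 kb upon Tmem120a knockdown and 534 kb upon Tmem120a/b knockdown.

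The desaturases held the genes with the least change. Fads1, Fads2 and Fads3, which lie together on chromosome 19 and act on polyunsaturated fatty acids or resemble enzymes that do, showed start distances that differed between lists by a factor of 1.012, 1.016 and 1.021 from the lowest to the highest. The start site of Fads3, the nearest of the role group, was 220 kb from a LAD in preadipocytes, 216 kb in control adipocytes, 220 kb upon Tmem120a knockdown and 218 kb upon Tmem120a/b knockdown. The LAD at that place ended at the same position in preadipocytes and upon Tmem120a knockdown, and a few kb closer to Fads3 in the other lists, although its length was 672, 671, 257 and 40.2 kb in the same order. The border thus stayed while the called domain behind it became shorter. Fads6 was 664, 679, 252 and 323 kb from a LAD.

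Scd1, the stearoyl-CoA desaturase that makes oleate and is known as an abundant enzyme of fat cells, was 953, 962, 969 and 573 kb from a LAD in preadipocytes, adipocytes, Tmem120a knockdown and Tmem120a/b knockdown. It was the farthest of the desaturases. Scd2, Scd3 and Scd4, its neighbours on chromosome 19, had distances between 748 and 895 kb in the first 3 lists and between 369 and 499 kb upon Tmem120a/b knockdown. The lower values in the last list come from a single LAD of 18.2 kb, which all 4 genes share as their nearest, so they are 1 observation and not 4. No desaturase had a start within 200 kb of a LAD in any list.

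Among the genes of glycerolipid assembly, Agpat5 was the nearest to LADs and Dgat2 the farthest by mean distance. Agpat5, an acyltransferase that acts on lysophosphatidic acid, was 111, 115, 105 and 20.9 kb from a LAD in the 4 lists, with 27.8%, 26.9%, 29.0% and 33.0% of its window in LADs. Agpat4, of the same family, was 147, 179, 190.2 and 97.0 kb away. Both genes thus had LADs nearby at every stage. Dgat2, which carries out the last step of triglyceride synthesis, was 2005 kb from a LAD in preadipocytes, 3344 kb in control adipocytes, 562 kb upon Tmem120a knockdown and 554 kb upon Tmem120a/b knockdown. Its neighbour Mogat2, a monoacylglycerol acyltransferase, gave 2061, 3288, 506 and 498 kb. Dgat1, the other enzyme of the last step, was 1689, 1186, 965 and 1146 kb away. Dgat1 and Dgat2 were therefore far from LADs in all 4 lists.

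Other members of this role group varied between lists. Gpam, the mitochondrial glycerol phosphate acyltransferase that starts the pathway, was 848, 2169, 571 and 313 kb from a LAD. It shares its nearest LAD with Acsl5 in each list. Agpat1 was 709, 1724, 158 and 62.4 kb away, with 0%, 0%, 7.96% and 27.5% of its window in LADs. Agpat2, the family member most closely tied to fat tissue since its loss causes lipodystrophy, went the other way. Its start site was 87.9, 81.2 and 85.1 kb from a LAD in preadipocytes, adipocytes and the Tmem120a knockdown, and 688 kb upon Tmem120a/b knockdown, which lacked the LAD of 28.1 kb seen near the gene in control adipocytes. With LADs under 30 kb left out, Agpat2 was no longer at least 2-fold farther in that list than in control adipocytes. Lpin1, the main phosphatidate phosphatase of fat, was 1141, 1088, 1137 and 73.0 kb away.

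The lipases were outside LADs in all lists. Mgll, which hydrolyses monoacylglycerol, was the farthest by mean distance of its start site, with 1034, 1478, 429 and 112 kb, and Lipg, the endothelial lipase, the nearest, with 285, 326, 207 and 247 kb. Lipa, the lysosomal acid lipase, was 159, 484, 349 and 193 kb away. Lipc, the hepatic lipase, was 250 kb away in preadipocytes, 1214 kb in control adipocytes, 1090 kb upon Tmem120a knockdown and 363 kb upon Tmem120a/b knockdown. All 4 lipases thus had the highest value in control adipocytes, as did 19 of the 38 members with starts outside LADs in every list (50%) and 53.1% of all such genes.

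**Figure D3:**
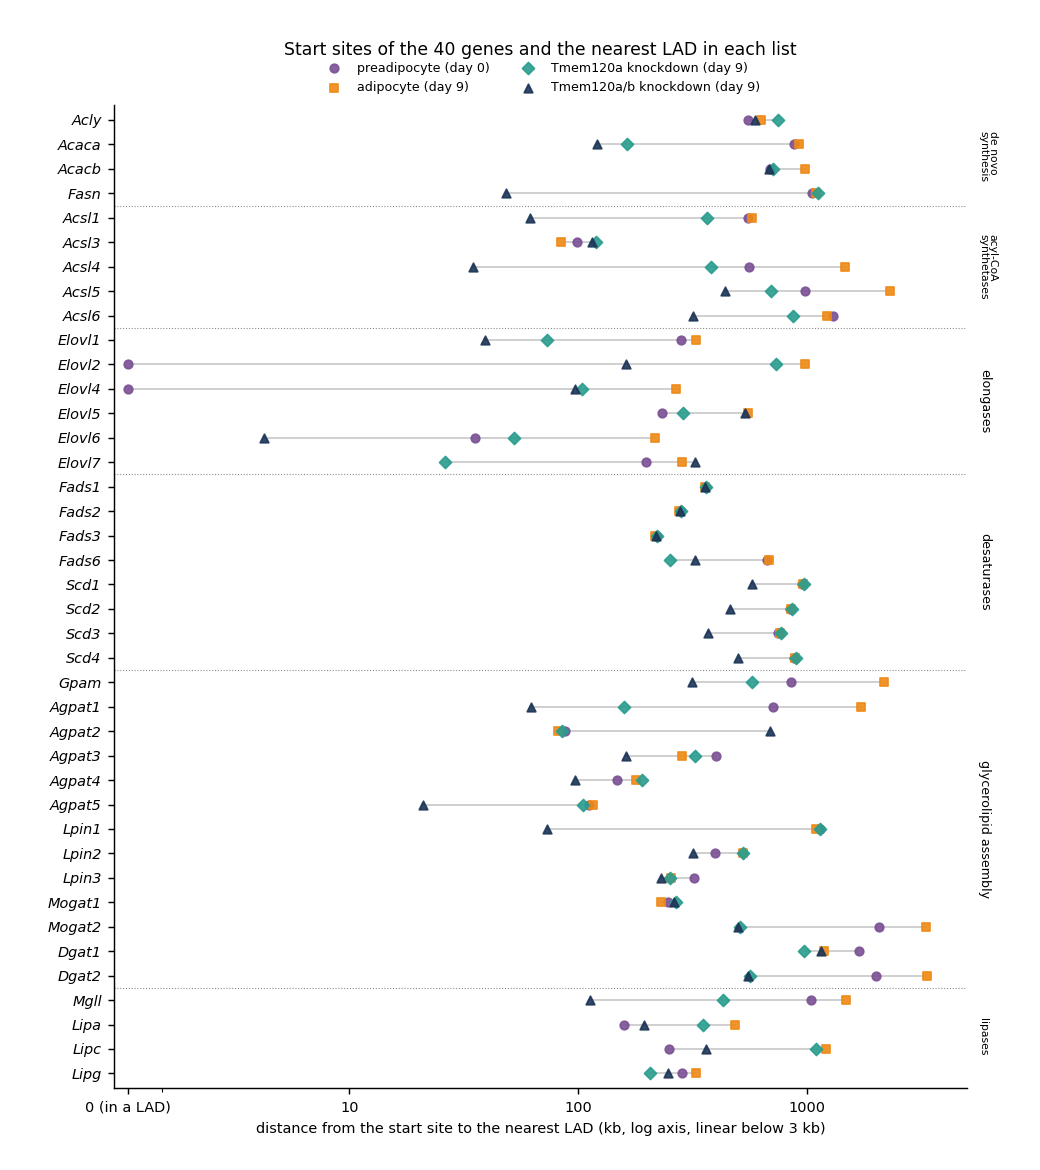
Distance from the start site of each of the 40 genes (y axis, grouped by role) to the nearest LAD (x axis, kb, log scale above 3 kb) in the 4 lists. Each symbol is the value of 1 list and grey lines join the lowest and highest. Elovl2 and Elovl4 reach 0 in preadipocytes, Fads1, Fads2 and Fads3 hardly vary, and many genes have the Tmem120a/b knockdown symbol farthest to the left.

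Start distances were next compared between lists for all starts outside LADs in both. From preadipocytes to adipocytes 8 of 38 members (21.1%) had a distance at least 2-fold larger, close to the 21.7% of all genes, and 0 of 38 a distance at least 2-fold smaller (4.47% of all genes). The 8 were Acsl4, Acsl5, Agpat1, Elovl5, Elovl6, Gpam, Lipa and Lipc, at 7 separate loci. In 7 of the 8 the preadipocyte LAD next to the gene was under 50 kb long, as it was for 59.8% of all genes with such a change.

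From adipocytes to the Tmem120a knockdown 13 of 40 members (32.5%) were at least 2-fold nearer to a LAD, where 37.1% of all genes were, and 0 of 40 were at least 2-fold farther (3.52% of all genes). From adipocytes to the Tmem120a/b knockdown 21 of 40 (52.5%) were at least 2-fold nearer, where 44.4% of all genes were, and 1 of 40, Agpat2, was at least 2-fold farther (3.5% of all genes). Both comparisons use the same adipocyte list. The shares among members were near those among all genes, so an approach to LADs in the knockdown lists was common to genes at large and is not a result about these enzymes.

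The LADs that came near were often short, for members and for all genes. Upon Tmem120a/b knockdown the nearest LAD of those 21 members had a median length of 38.5 kb and was under 50 kb in 16 of them (75.9% of all genes at least 2-fold nearer), and upon Tmem120a knockdown it was under 50 kb in 7 of 13 (78.6%). With LADs under 30 kb left out, the count of members at least 2-fold nearer stayed at 13 upon Tmem120a knockdown (27.5% of all genes) and was 17 upon Tmem120a/b knockdown (34.2% of all genes). With LADs under 100 kb left out, 1 of 40 members (2.5%) was at least 2-fold nearer upon Tmem120a knockdown (8.11% of all genes). Upon Tmem120a/b knockdown 2 of 40 (5%) were (16.3% of all genes). At that limit the members' shares were below those of all genes and no longer near them. The counts thus changed little with a limit of 30 kb and fell with one of 100 kb. At 100 kb the median start distance of the members was 920.4 kb in control adipocytes, 932 kb upon Tmem120a knockdown and 943 kb upon Tmem120a/b knockdown. The medians were then close to each other, and those of the knockdown lists were no longer lower. The knockdown lists also held more LADs with a lower median length (59.1 and 60.8 kb against 103 kb in control adipocytes). The part of this difference in the result was not tested.

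**Figure D4:**
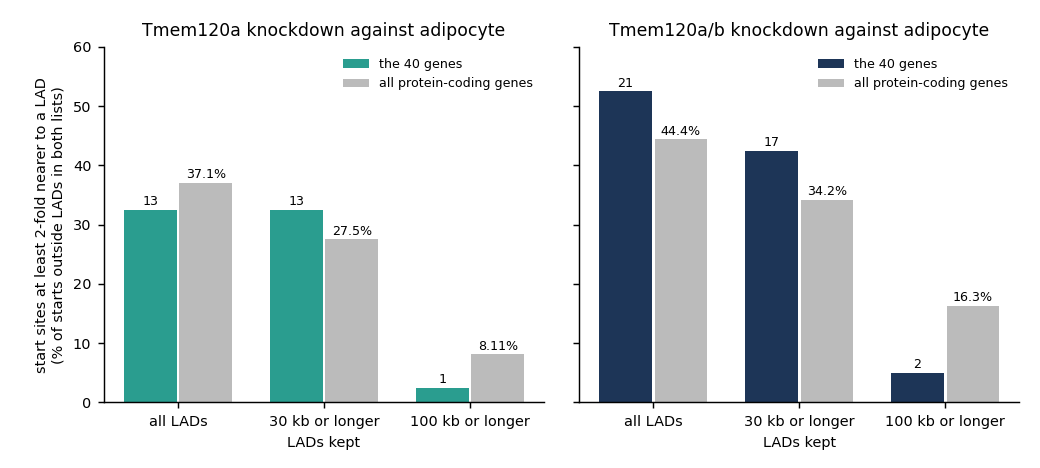
Share of start sites (y axis, %) at least 2-fold nearer to a LAD in a knockdown list than in the adipocyte list, for the 40 genes (numbers over the bars are counts of genes) and all protein-coding genes (numbers are percentages), with all LADs, LADs of at least 30 kb or LADs of at least 100 kb kept. The counts of members are 13, 13 and 1 in the Tmem120a comparison and 21, 17 and 2 in the Tmem120a/b comparison.

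The surroundings of the genes were also poor in LADs. On average 4.83% of the 500 kb around the members' start sites lay in LADs in preadipocytes, 2.28% in control adipocytes, 3.82% upon Tmem120a knockdown and 6.50% upon Tmem120a/b knockdown, against 26.8%, 24.7%, 26.3% and 27.5% for all genes. The median member had 0% in each list, since the window held no LAD for 27, 33, 28 and 21 of the 40 genes. Within 100 kb of a LAD lay the start sites of 5, 2, 4 and 10 members, or 12.5%, 5%, 10% and 25%, whereas 41.1%, 34.7%, 45.5% and 48.6% of all genes did. Even leaving aside starts inside LADs, the median distance was larger for members (552, 654, 364 and 270.1 kb) than for all genes (374, 521, 240.5 and 209 kb).

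**Figure D5:**
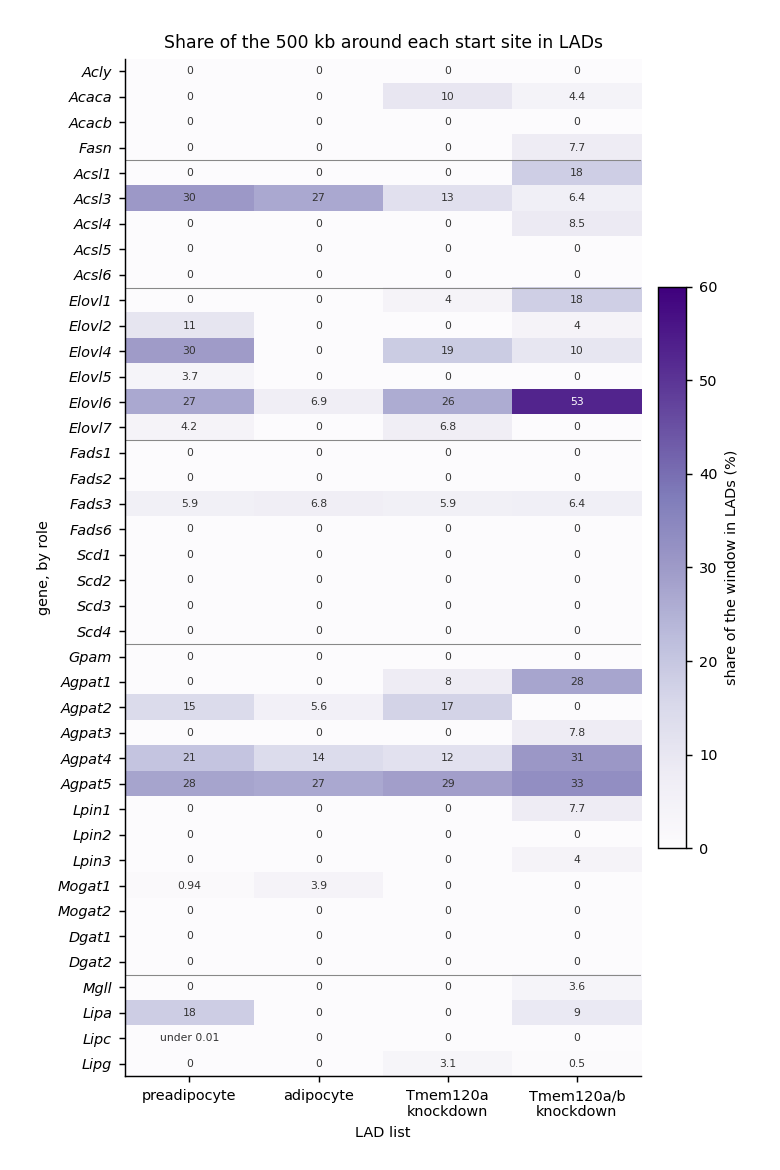
Share of the 500 kb centred on each start site that lies in LADs (colour and number, %) for the 40 genes (rows, grouped by role) in the 4 lists (columns). Most cells are 0. Acsl3, Agpat4 and Agpat5 have LADs nearby in every list, while Elovl4 and Elovl6 have less in control adipocytes than in preadipocytes.

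Gene density around the members was close to that of genes at large. Within 500 kb of the start site, members had a median of 14 other protein-coding genes (from 4 to 66), and all genes a median of 15. Of the 40 members, 8 fell in the lowest of 4 classes of gene density (0 to 7 neighbours), where 40% of all genes met a LAD in preadipocytes and 36.5% in control adipocytes. None of those 8 did in either list, and Acsl4 was the only one of them to meet a LAD in any. In the next class (8 to 14 neighbours) lay 12 members, of which 2, Elovl2 and Elovl4, met a LAD in preadipocytes (23.4% of all genes) and 0 in control adipocytes (18.2%). The classes of 15 to 26 and of 27 to 82 neighbours held 14 and 6 members, of which 0 met a LAD in these lists, where 21.8% and 21.7% of all genes did in preadipocytes. Members were longer than genes at large (median 39.3 against 15.4 kb). The median number of GATC sites per 10 kb of body was 23.4 for members and 24.1 for all genes. The part of gene length and GATC spacing in the LAD shares was not tested. GC content of the 500 kb around the start was 45.5% against 44.2% (medians).

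The 40 genes are not independent places. Joined where they lie within 500 kb of each other, they form 32 loci on 18 chromosomes. Of the members, 13 share 5 loci: Mogat1 with Acsl3, Dgat2 with Mogat2, Fads1 with Fads2 and Fads3, the Scd genes, and Gpam with Acsl5. The 5 genes that met a LAD lie at 5 separate loci, so in 27 of the 32 no member met a LAD in any list. Distances within a shared locus follow the same LADs and moved together.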

How the data were processed

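LaminB1-DamID of 3T3-L1 cells gave 8 libraries, a Dam and a LaminB1-Dam library for every one of the 4 conditions. The authors aligned reads to mm9, computed a log2 ratio (fusion over free Dam) per DpnI fragment and segmented it with DNAcopy. BWA and limma are named in the submitters' processing notes without a role. The files deposited by the authors hold positions of LADs (4 lists) and of differential regions (2 lists), with no score. The condition of a list was read from the abbreviation in its name. Lists of positions carry no depth, so no interval that needs depth is given.

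Gene positions were taken from GENCODE vM1 (NCBIM37, which is mm9), with 22367 protein-coding genes on 21 chromosomes. Overlap of any length counted as meeting a LAD. Distances ran from the most upstream annotated start of a gene to the nearest LAD border, and were compared for starts outside LADs in both lists, with a 2-fold difference counted. Counts and medians over the members were set beside those over all genes. Deposited positions, counted from 1, fell on the base after a DpnI cut and were read accordingly, and LAD borders are given as deposited. RefSeq promoter sequences (GRCm38.p6) were located in mm9 by exact match.

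The members, role groups and comparison lists were chosen with earlier results of these data known. Genes described were those with a different state between lists, those within 50 kb of a LAD, and the nearest and farthest of each role group. Further members were named after their values were seen. Alternatives changed the gap closed (50 kb), the shortest LAD kept (30 or 100 kb), the overlap rule, the start site and the window (200 kb or 1 Mb). Python 3.11.15 with NumPy 2.4.6 and matplotlib 3.10.9 was used, and the interval arithmetic was tested on 200 simulated lists.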

Additional observations from a re-analysis of the deposited data

How the results depend on the processing

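Of 134 counts and medians over the members under other settings, 108 stayed within 1.5 times the reported value and 26 did not. The 108 include counts that could not change, since with no member in a LAD in control adipocytes none could be recruited or lost. The absence of the members from LADs in control adipocytes, 0 of 40, held under all settings of LAD length, gap and overlap. The 18 values for distances at least 2-fold different were chosen after seeing the data.

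For counts, shares of all genes at the same setting follow in brackets. Length of the LADs mattered most. With LADs under 100 kb left out, the body met a LAD in 1 of 40 members in preadipocytes (Elovl4; 21.8%), in 0 upon Tmem120a knockdown (20.1%) and in 0 upon Tmem120a/b knockdown (20.6%). Then 1 start lay in a preadipocyte LAD (20.3%), 1 gene was released (2.98%), and 0 were gained upon either knockdown (1.84% and 3.08%). The median start distance was then 806 kb in preadipocytes, 920.4 kb in control adipocytes, 932 kb upon Tmem120a knockdown and 943 kb upon Tmem120a/b knockdown, in place of 474, 654, 364 and 270.1 kb. Both knockdown medians thus came to lie close to that of control adipocytes and no longer below it. Members at least 2-fold farther in control adipocytes than in preadipocytes fell to 1 of 39, or 2.56% (14%), which is below the share of all genes, whereas the reported shares were alike. Members at least 2-fold nearer upon knockdown fell to 1 of 40, or 2.5%, for Tmem120a (8.11%) and 2 of 40, or 5%, for Tmem120a/b (16.3%). These are also below the shares of all genes, whereas the reported shares were near them. With LADs under 30 kb left out, Elovl6 met no LAD, leaving 1 member in a LAD (27%) and 1 gained (6.49%) upon Tmem120a/b knockdown. Members at least 2-fold farther than in control adipocytes then numbered 1 upon Tmem120a knockdown (3.69%). Upon Tmem120a/b knockdown they numbered 0 (3.85%), so Agpat2 was no longer counted. When at least 50% of the body had to lie in LADs, 0 members met a LAD (22.8%) and 0 were gained (3.59%) upon Tmem120a knockdown, and 1, Acsl4, met a LAD (24.2%) and was gained (5.3%) upon Tmem120a/b knockdown. Closing gaps under 50 kb (25.7%), or taking 10 kb on each side of the start (27.2%), put 1 start (Elovl6) in a LAD upon Tmem120a/b knockdown. In a window of 1 Mb the median share in LADs was 0.883% in preadipocytes, 4.35% upon Tmem120a knockdown and 5.85% upon Tmem120a/b knockdown, in place of 0%. No value over all genes is given for this window. At 500 kb the median over all genes was 6.34% in preadipocytes, 0% in control adipocytes, 9.12% upon Tmem120a knockdown and 10.89% upon Tmem120a/b knockdown. The higher values in the knockdown lists are thus not shown to be a result about the members. Leaving out a replicate was not possible with 1 pair of libraries per condition.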

Other observations

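Other genes of fat metabolism were placed in the same way. In 30 regulators and other enzymes of lipid synthesis, 2 met a LAD in each of the 4 lists (6.67%), where 26.2%, 23.3%, 27.5% and 29.5% of all genes did in preadipocytes, control adipocytes, Tmem120a knockdown and Tmem120a/b knockdown. Hacd1, a dehydratase of the elongation cycle, did so in every list, with 78.6%, 69.8%, 67.1% and 20.7% of its body in LADs in the same order. Agk, an acylglycerol kinase, was partly in a LAD in preadipocytes (10.4% of the body) and upon Tmem120a knockdown (52.2%), and outside LADs in the other lists. Olah, a thioesterase that releases medium-chain fatty acids from fatty acid synthase, was partly in a LAD in control adipocytes (49.8%) and upon Tmem120a/b knockdown (52.8%), and outside in the others. The regulators Srebf1, Mlxipl, Nr1h3 and Thrsp, which drive transcription of lipogenic genes, met no LAD in any list.

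In 30 genes of fatty acid oxidation, 1 met a LAD in preadipocytes, 0 in control adipocytes, 1 upon Tmem120a knockdown and 4 upon Tmem120a/b knockdown, or 3.33%, 0%, 3.33% and 13.3%, each below the share of all genes given above. The gene in preadipocytes was Acaa1b, a peroxisomal thiolase, which was covered whole there and not at all in the other lists. In 32 genes of lipid storage, uptake and release the counts were 3, 1, 2 and 3, or 9.38%, 3.12%, 6.25% and 9.38%. Cd36, the fatty acid translocase, and Pck1, which supplies glycerol phosphate through glyceroneogenesis, were covered whole in preadipocytes and met no LAD in the other 3 lists. These 5 genes (Agk, Olah, Acaa1b, Cd36 and Pck1) were the ones of the 92 that differed in state between preadipocytes and control adipocytes, 4 of them released (4.81% of all genes) and Olah recruited (1.88% of all genes). Hacd1 and the 4 regulators were named after their values were seen.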
